A study of Mus musculus with 8 samples.

Results

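The genes described here are 38 genes of the endoplasmic reticulum (ER) that fold, sort, degrade or secrete proteins, or sense the load of unfolded protein. They form a list fixed by name and role. Its rule used no measured value, but the list was chosen with earlier results of these data known. Each gene was found by its symbol among the 54532 genes of the count table. RNA-seq was performed on total bone marrow B cells of ovariectomized (OVX) and sham-operated (Sham) mice, with 3 libraries per group. Bilateral ovariectomy removes the main source of estrogen and serves as a surgical model of menopause, and a Sham mouse undergoes the operation without loss of the ovaries. The B cells of both groups were taken out of bone marrow with magnetic beads and received no other treatment, and markers of pro-B and pre-B cells and of mature B cells were both counted in every library. For these RNA libraries the labels give neither genotype, strain nor age. The study's captions give n = 3 for each group, without saying whether n counts mice or whether RNA was pooled. The question addressed by the comparison is which transcripts of bone marrow B cells differ after OVX.

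A secreted or membrane protein enters the ER through the Sec61 channel, loses its signal peptide to the signal peptidase, and folds with the help of chaperones and of enzymes that form disulfide bonds. Proteins that fail to fold are passed back to the cytosol and degraded, which is known as ER-associated degradation. When unfolded protein accumulates, the sensors IRE1α (Ern1), PERK (Eif2ak3) and ATF6 (Atf6) start the unfolded protein response, which raises the transcription of these same chaperones and degradation factors. In the B lineage this machinery is best known from plasma cells, which enlarge the ER to secrete antibody.

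No member was called higher or lower in OVX. The test was the quasi-likelihood test of edgeR, adjusted by Benjamini-Hochberg over 15305 genes, and a call needed an adjusted p below 0.05 together with a change of 1.6-fold or more. Of the 38 members 0 passed, where the share called over all genes tested was 0% in either direction. All 38 members passed the filter on low counts. Levels are given in CPM, a gene's reads per 1000000 reads counted in the tested genes of its library, after scaling by TMM factors. SE stands for standard error, and fold changes are OVX over Sham. The members' log2 fold changes of OVX over Sham had a median of -0.013, beside -0.0081 over all genes tested, and ran from -0.37 for Derl3 to 0.35 for Herpud1. Of the 38, 21 lay below 0 and 17 above, where 51.8% of all genes tested lay below and 48.2% above. At an unadjusted p under 0.05 there was 1 member, Pdia3, lower in OVX, where 2.28% of all genes tested were lower and 1.47% higher at that level. For 35 of the 38 members the 95% interval of the log2 fold change stayed inside a fold of 1.6 in both directions. It did so for 9109 of the 15305 genes tested, which include genes with far fewer reads. The interval reached beyond this fold for Herpud1, Derl3 and Trib3.

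**Figure D1:**
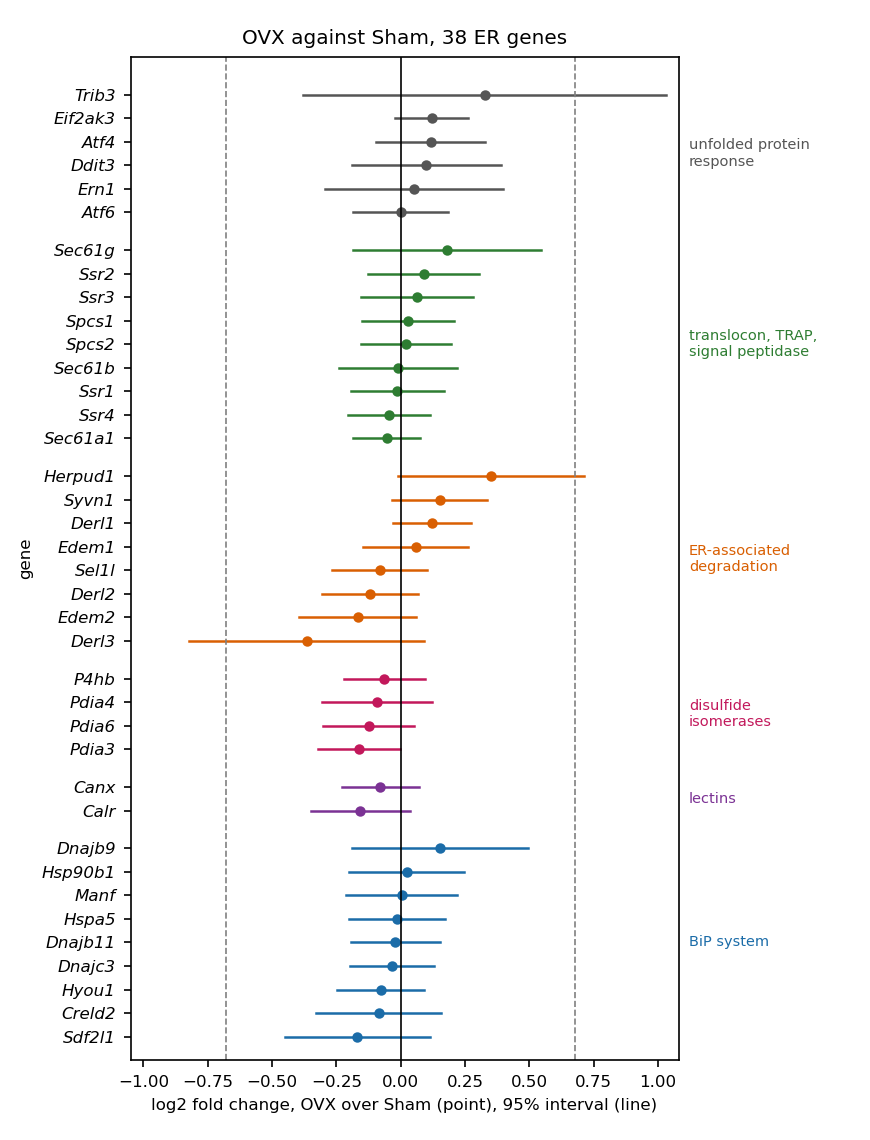
Log2 fold change of OVX over Sham (horizontal axis) for the 38 ER genes, grouped by role, with the point as the fitted value and the line as its 95% interval, and dashed lines at a fold of 1.6. All 6 lectins and disulfide isomerases sit left of 0, and the intervals of Herpud1, Derl3 and Trib3 are the ones that cross a dashed line.

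The libraries held between 23838775 and 33136701 counted reads, and the 38 members took between 0.58% and 0.625% of them. B cell markers were abundant in all 6 libraries, with 12 genes summing to 11301 to 12223 CPM in Sham and 11646 to 13254 CPM in OVX. The libraries stood apart in other cells and stages. The 18 neutrophil genes summed to 2674 to 10186 CPM in Sham, with the highest level in replicate 3, and to 1182 to 4293 CPM in OVX, with the highest in replicate 1, and none of them was at 0 in any library. All 18 of these, all 12 monocyte and macrophage genes and all 8 erythroid genes had log2 fold changes below 0, with medians of -1.29, -0.46 and -0.87, as did 7 of the 8 T and NK cell genes, with a median of -1.44, and none was called. The 10 pro-B and pre-B genes were lowest in Sham replicate 2, at 2030.2 CPM against 2590 to 3970.1 CPM in the other libraries, and the 8 mature B cell genes were highest there, at 4976 CPM against 2522 to 2975 CPM. Of the pro-B and pre-B genes 8 lay above 0 and 2 below, their median being 0.30 on the log2 scale, and of the mature B cell genes 2 lay above and 6 below, with a median of -0.33. Summed levels of the monocyte and macrophage genes spanned 662 to 2254 CPM, those of the erythroid genes 127 to 413 CPM, the T and NK cell genes 15.2 to 45.9 CPM, the 8 cell cycle genes 1867 to 2907 CPM, and the 9 immediate early and heat shock genes 569.6 to 809 CPM. All 8 cell cycle genes lay above 0, with a median of 0.13. The 12 B cell genes had 9 above and 3 below, with a median of 0.10. Those of the immediate early and heat shock list had 3 above and 6 below. At an unadjusted p under 0.05 (edgeR's quasi-likelihood test) were 1 B cell gene, higher in OVX, and 3 erythroid and 2 T and NK cell genes, lower. None of these was called. The 10 plasma cell genes, among which Ighm took most reads and is made by all later B cells, summed to 7780.0 to 8826 CPM. Of the 10, 5 had log2 fold changes above 0 and 5 below. In some single plasma cell genes the libraries differed more. Jchain, which joins antibody units into polymers, was at 112, 641 and 516 CPM in Sham replicates 1, 2 and 3 and at 257, 105 and 71.3 CPM in OVX replicates 1, 2 and 3. Sdc1, the plasma cell surface marker also found on early B cells, was at 85.6, 51.4 and 71.3 CPM in Sham and 89.6, 94.97 and 68.2 CPM in OVX. Prdm1, a factor of plasma cell formation, was at 3.42, 9.48 and 6.60 CPM in Sham and 3.50, 3.85 and 2.88 CPM in OVX, and Tnfrsf17, a receptor of plasma cells, had 10, 32 and 15 reads in Sham and 8, 11 and 5 reads in OVX. These 2 were the plasma cell genes at an unadjusted p under 0.05, both lower in OVX and not called, and are named here after their values were seen. The part of these differences in the results on ER genes was not tested, other than by the fits with a covariate given in the closing section. In a bulk library, fewer cells of a type and less RNA per cell cannot be told apart.

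**Figure D2:**
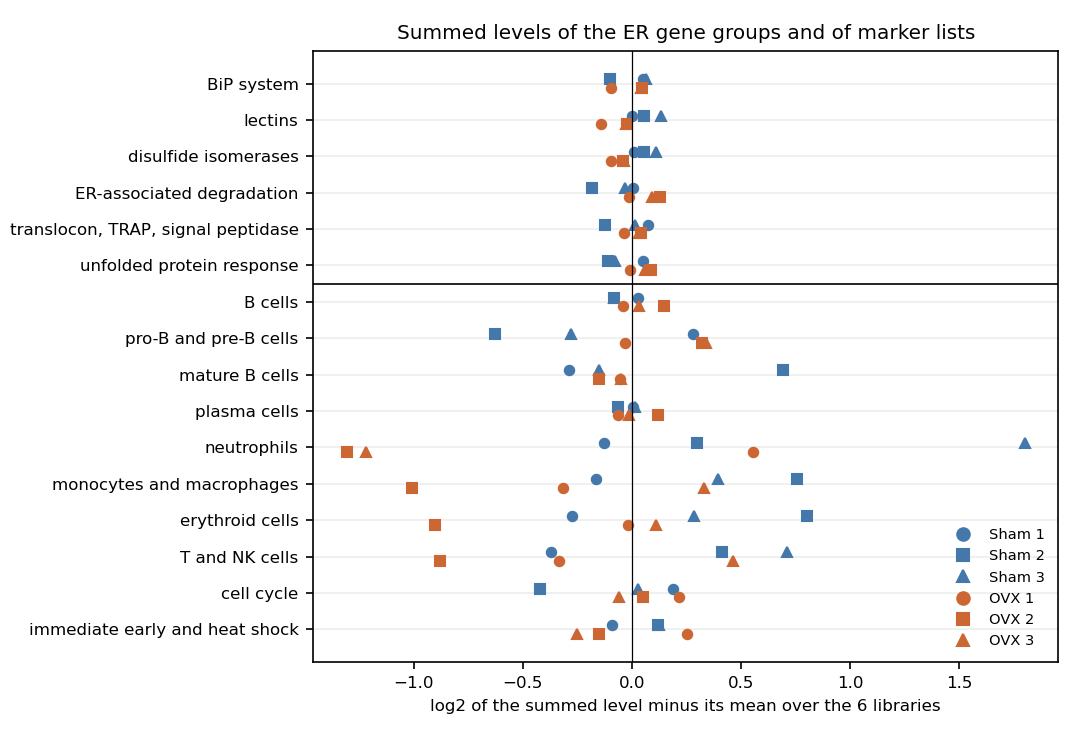
Log2 of the summed CPM of each gene list minus its mean over the 6 libraries (horizontal axis), for the 6 groups of ER genes above the line and 10 marker lists below it, with one symbol per library. The ER groups stay close to 0 in every library, while the neutrophil list spans from 1182 to 10186 CPM.

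In the unfolded protein response ATF6 and XBP1 act on promoters that carry the ER stress response element (ERSE). The element is known from promoters of ER chaperones, so its presence is background and not a change. Its letters CCAAT and CCACG, separated by a spacer of any 9 bases, and those of the shorter ERSE-II, ATTGG and CCACG with 1 base of any kind between them, were searched on both strands of RefSeq windows (GRCm38.p6) from 250 bases before to 50 bases after the transcription start. A window was found for 32 of the 38 members, and not for Hyou1, Manf, Derl1, Sec61a1, Ssr2 and Atf6. The ERSE letters were in 9 of the 32, or 28.1%, against 37 of 27025 genes with a window, or 0.137%. The ERSE-II letters were in 2 of the 32, or 6.25%, against 0.0444% of all genes. The 12 sites found, in 11 of the 32 members, are shown. Fixed letters are in capitals, the spacer is in lower case, and each site is read in the direction of the element:
Calr, ERSE, chr8:84847075-84847093, plus strand: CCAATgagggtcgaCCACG
Canx, ERSE, chr11:50325800-50325818, minus strand: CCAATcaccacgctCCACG
Creld2, ERSE, chr15:88819520-88819538, minus strand: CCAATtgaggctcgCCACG
Derl3, ERSE, chr10:75893242-75893260, minus strand: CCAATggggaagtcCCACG
Dnajb11, ERSE-II, chr16:22857852-22857862, plus strand: ATTGGcCCACG
Dnajc3, ERSE, chr14:118937827-118937845, plus strand: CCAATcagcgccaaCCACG
Herpud1, ERSE-II, chr8:94386377-94386387, plus strand: ATTGGgCCACG
Hsp90b1, ERSE, chr10:86705533-86705551, plus strand: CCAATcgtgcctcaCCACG
Hsp90b1, ERSE, chr10:86705638-86705656, minus strand: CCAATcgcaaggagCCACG
Hspa5, ERSE, chr2:34772025-34772043, plus strand: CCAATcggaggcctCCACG
Pdia6, ERSE, chr12:17266491-17266509, plus strand: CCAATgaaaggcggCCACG
Syvn1, ERSE, chr19:6046532-6046550, plus strand: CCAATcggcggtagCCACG
The search asked for exact letters, so a site with 1 or more changed letters is not counted, and a promoter can hold more elements than are shown. The letters ATTGCATCA, a site of the ATF4 and CHOP type, were in none of the 32 members, beside 0.222% of all genes. TGACGTGG, a core bound by XBP1 and ATF6, was also in none, beside 0.714%. Letters this rare would be missing from most lists of this size, so their absence says nothing about the members. Since the study concerns HIF-1α, the letters of its element, ACGTG or GCGTG, were searched too. They were in 25 of the 32 members' windows, or 78.1%, against 46.7% of all genes, but these windows were richer in G and C, with a median of 63.0% against 52.7% in all windows, and 6 of the 12 ERSE sites overlap such letters. Outside those sites the letters were still found for 23 of the 32 members. A match of letters is not a bound site, and no binding data were analysed here.

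**Figure D3:**
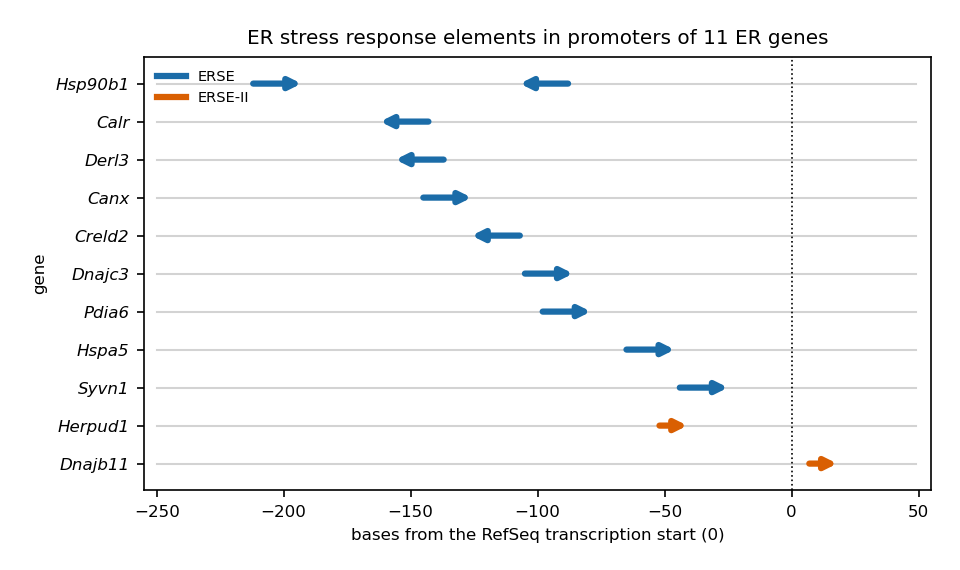
Position of the ERSE and ERSE-II letters in the promoter windows of 11 ER genes, in bases from the RefSeq transcription start at 0, with arrows in the direction of the element. The sites lie from -212 to 17, with 2 in Hsp90b1 and 1 in each other gene, and that of Dnajb11 is the only one after the start.

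No gene of the BiP system passed the test, and the most abundant of them had overlapping groups. BiP (Hspa5, ENSMUSG00000026864), the ER member of the HSP70 family and the central chaperone that also keeps the sensors silent, was at 476, 431 and 459 CPM in Sham replicates 1, 2 and 3 and at 419.6, 456 and 477 CPM in OVX replicates 1, 2 and 3. Its exact ERSE match lies just before the start, in capitals in the 250 bases upstream, where copies with changed letters are not marked:
Hspa5 promoter, chr2:34771840-34772089, plus strand: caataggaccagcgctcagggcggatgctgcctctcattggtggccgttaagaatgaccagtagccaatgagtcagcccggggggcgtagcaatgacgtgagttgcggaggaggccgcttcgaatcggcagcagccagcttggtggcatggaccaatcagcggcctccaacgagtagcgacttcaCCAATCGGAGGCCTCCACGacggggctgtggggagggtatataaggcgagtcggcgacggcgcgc
The groups overlapped. The mean level of Hspa5 was 451 ± 28.98 CPM in OVX and 456 ± 23.1 CPM in Sham (SD, n = 3 each), and the fitted log2 fold change was -0.015 with a 95% interval from -0.20 to 0.17. Hsp90b1 (ENSMUSG00000020048), the ER member of the HSP90 family, was at 625, 527 and 626 CPM in Sham and 561, 636 and 611 CPM in OVX. It was one of 15 members with their lowest level in Sham replicate 2. The promoter of Hsp90b1 is shown because it carries 2 ERSE sites in opposite directions, both in capitals:
Hsp90b1 promoter, chr10:86705445-86705694, minus strand: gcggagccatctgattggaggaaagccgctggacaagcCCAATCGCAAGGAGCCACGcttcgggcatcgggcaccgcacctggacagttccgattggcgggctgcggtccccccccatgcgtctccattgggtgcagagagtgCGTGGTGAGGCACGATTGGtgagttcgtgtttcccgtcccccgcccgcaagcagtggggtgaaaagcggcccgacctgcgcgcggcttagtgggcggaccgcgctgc
The log2 fold change of Hsp90b1 was 0.024, with an interval from -0.20 to 0.25. Sdf2l1 (ENSMUSG00000022769), a partner of the BiP cochaperones, had the lowest p of the group and was at 37.0, 31.8 and 42.8 CPM in Sham and 31.1, 34.2 and 34.0 CPM in OVX. Sham replicates 1 and 3 lay above all OVX libraries and Sham replicate 2 lay among them, and the log2 fold change, -0.17 (SE 0.12, adjusted p = 0.811, edgeR's quasi-likelihood test), was -0.063 without Sham replicate 3 and -0.27 without Sham replicate 2. Creld2 (ENSMUSG00000023272), an ER protein induced by ER stress, was at 30.2, 36.9 and 36.9 CPM in Sham and 31.2, 34.0 and 32.8 CPM in OVX. All OVX libraries lay between the lowest and the highest Sham library, and the log2 fold change was -0.086 (SE 0.10). Of the 9 genes of the group, 3 lay above 0 and 6 below, between -0.17 and 0.15.

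The lectin chaperones and the disulfide isomerases were the 2 groups in which every gene lay lower in OVX, by small amounts. Calreticulin (Calr) and calnexin (Canx) hold glycoproteins while they fold, Pdia3 (ERp57) works with them, and Pdia4, Pdia6 and P4hb form and rearrange disulfide bonds. With the 2 groups counted together, all 6 log2 fold changes were below 0, where 51.8% of all genes tested lay below. They ran from -0.16 to -0.063 with a median of -0.11. Of 15 further genes for folding and disulfide transfer, 6 lay above 0 and 9 below. The 6 members stayed below 0 with each other scaling tried and with DESeq2 and limma-voom. Pdia4 alone lay at 0.0027 without Sham replicate 2 and at 0.028 with the pro-B and pre-B level as a covariate. The summed level of the 2 lectins was 795 to 873 CPM in Sham and 721 to 783 CPM in OVX, and that of the 4 isomerases was 857 to 918 CPM in Sham and 797 to 831 CPM in OVX, with all OVX libraries below all Sham libraries in both. Pdia3 (ENSMUSG00000027248) was at 298, 309.7 and 326 CPM in Sham and 269, 277 and 288 CPM in OVX. Its mean was 278 ± 9.58 CPM in OVX and 311 ± 13.8 CPM in Sham (SD, n = 3 each). The fitted log2 fold change was -0.16 (SE 0.067). No OVX library of Pdia3 reached a Sham library, and the adjusted p was 0.811 (edgeR's quasi-likelihood test). With any single library left out, Pdia3 lay between -0.20 and -0.14. Canx (ENSMUSG00000020368) was at 318, 312 and 325 CPM in Sham and 289, 311 and 304 CPM in OVX. Here too the groups did not overlap, though OVX replicate 2 and Sham replicate 2 lay almost level, and the log2 fold change was -0.079 (SE 0.063). Pdia6 (ENSMUSG00000020571) was at 178, 177 and 197 CPM in Sham and 158, 176 and 173 CPM in OVX, again without overlap and with OVX replicate 2 close to the lowest Sham library. Its log2 fold change was -0.12 (SE 0.075), and its promoter is shown for the ERSE it shares with Calr and Canx:
Pdia6 promoter, chr12:17266339-17266588, plus strand: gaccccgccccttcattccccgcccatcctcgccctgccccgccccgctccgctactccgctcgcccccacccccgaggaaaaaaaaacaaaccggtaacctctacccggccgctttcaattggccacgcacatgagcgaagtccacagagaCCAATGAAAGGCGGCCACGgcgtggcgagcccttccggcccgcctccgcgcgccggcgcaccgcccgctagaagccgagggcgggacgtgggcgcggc
Over all members, 4 had every OVX library below every Sham library, Pdia3, Canx, Pdia6 and Sec61a1, and 1 had it above, Eif2ak3, where 4.12% and 4.33% of all genes tested did so. With 3 libraries against 3 the two-sided exact permutation test gives such a gene p = 0.1, the smallest it allows. These 4 stayed below with each of the other scalings. With scaling on 12 B cell genes, which moved the median of all genes by -0.09, Eif2ak3 no longer lay above. That scaling put 9 members below, and the share of all genes below was not counted for it. Calr (ENSMUSG00000003814) was at 477, 516 and 548 CPM in Sham and 431, 473 and 478 CPM in OVX. The groups of Calr met only at Sham replicate 1 and OVX replicate 3, and the log2 fold change was -0.16 (SE 0.082, adjusted p = 0.811, edgeR's quasi-likelihood test). The ERSE of Calr, in capitals, runs against the direction of the gene:
Calr promoter, chr8:84846932-84847181, minus strand: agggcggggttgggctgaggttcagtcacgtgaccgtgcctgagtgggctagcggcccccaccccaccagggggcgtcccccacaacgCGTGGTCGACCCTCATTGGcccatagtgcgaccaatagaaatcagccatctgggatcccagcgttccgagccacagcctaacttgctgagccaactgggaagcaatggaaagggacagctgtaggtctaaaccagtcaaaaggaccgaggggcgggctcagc
P4hb (ENSMUSG00000025130), the isomerase known as PDI itself, was at 247, 232 and 258 CPM in Sham and 232, 234 and 240.4 CPM in OVX. Its groups overlapped, with a log2 fold change of -0.063 (SE 0.066).

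**Figure D4:**
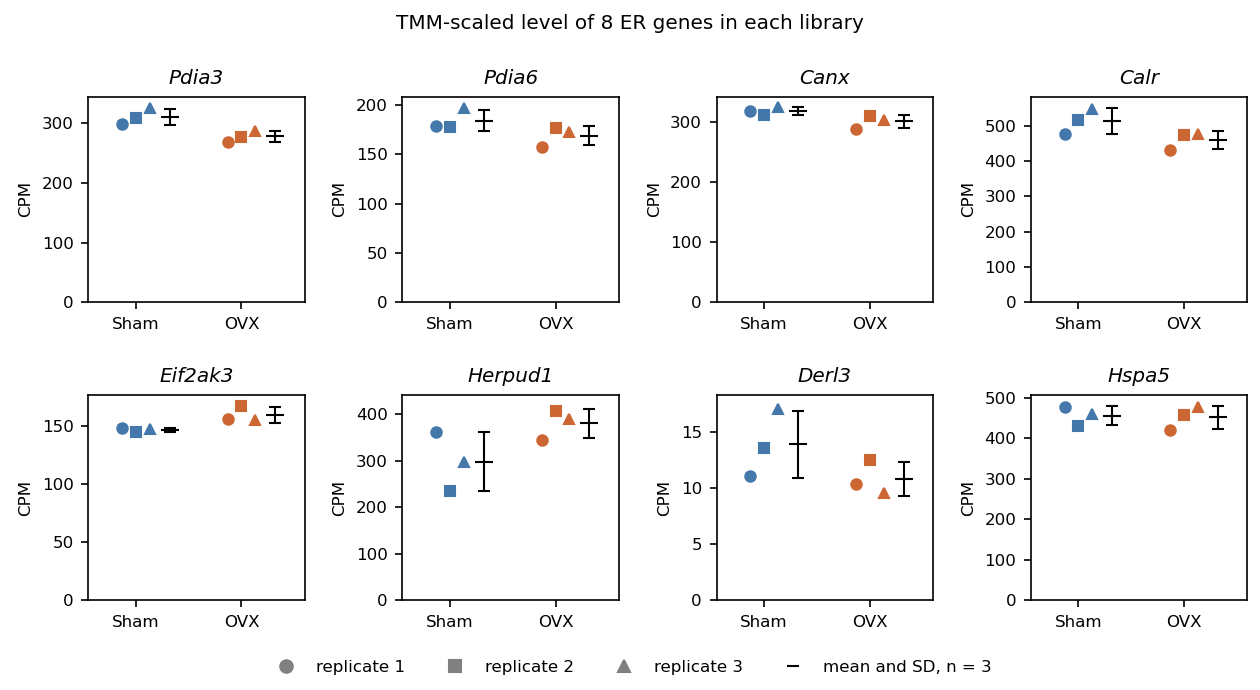
TMM-scaled level in CPM (vertical axis, from 0) of 8 ER genes in the 3 Sham and 3 OVX libraries, with one symbol per replicate and the mean ± SD (n = 3) beside them. Pdia3, Pdia6 and Canx lie lower in OVX and Eif2ak3 higher without overlap, and Herpud1 spans 235 to 406 CPM with its lowest level in Sham replicate 2.

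The genes of ER-associated degradation went different ways and held the 2 ends of the members' range. Herpud1 (ENSMUSG00000031770), a membrane protein that gathers the degradation complex and is strongly induced by ER stress, was at 362, 235 and 296 CPM in Sham and 344, 406 and 389 CPM in OVX. Sham replicate 1 lay above OVX replicate 1, so the groups overlapped, and Sham replicate 2 was by far the lowest. The mean was 379.8 ± 31.7 CPM in OVX and 298 ± 63.3 CPM in Sham (SD, n = 3 each). The fitted log2 fold change was 0.35 (SE 0.15), and its adjusted p was 0.811 (edgeR's quasi-likelihood test). The value of Herpud1 was 0.51 without Sham replicate 1 and 0.20 without Sham replicate 2, the library lowest in pro-B and pre-B genes. The promoter of Herpud1 holds the shorter ERSE-II in capitals:
Herpud1 promoter, chr8:94386179-94386428, plus strand: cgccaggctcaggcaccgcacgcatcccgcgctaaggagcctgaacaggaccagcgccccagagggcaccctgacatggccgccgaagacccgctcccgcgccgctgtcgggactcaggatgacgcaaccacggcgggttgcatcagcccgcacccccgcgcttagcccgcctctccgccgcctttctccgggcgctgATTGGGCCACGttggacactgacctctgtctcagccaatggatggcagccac
Syvn1 (ENSMUSG00000024807), the ubiquitin ligase HRD1 at the centre of the degradation channel, was at 449.8, 389 and 423 CPM in Sham and 448, 482 and 472 CPM in OVX. Only Sham replicate 1 reached the OVX levels, and the log2 fold change was 0.15 (SE 0.079). Derl3 (ENSMUSG00000009092), a derlin of secretory cells, was at 11.1, 13.6 and 17.1 CPM in Sham and 10.3, 12.5 and 9.63 CPM in OVX. Sham replicates 2 and 3 were its 2 highest libraries, as they were for 15.2% of all genes. The log2 fold change of Derl3 was -0.37 (SE 0.19, adjusted p = 0.811, edgeR's quasi-likelihood test). It was -0.51 without Sham replicate 1 and -0.20 without Sham replicate 3, and the part of secretory cells in it was not tested. The promoter of Derl3 also carries an ERSE, in capitals:
Derl3 promoter, chr10:75893148-75893397, plus strand: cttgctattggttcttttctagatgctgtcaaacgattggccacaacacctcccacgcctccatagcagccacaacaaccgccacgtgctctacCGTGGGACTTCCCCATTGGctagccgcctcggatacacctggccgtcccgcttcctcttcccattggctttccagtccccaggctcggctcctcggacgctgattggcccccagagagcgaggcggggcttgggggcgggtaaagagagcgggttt
The 8 genes of the group split evenly, with 4 above 0 and 4 below. Sel1l, the partner of Syvn1, lay at -0.081, and neither it nor Syvn1 passed the test.

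None of the genes of the translocon, the TRAP complex and the signal peptidase passed the test, and their log2 fold changes ran from -0.055 for Sec61a1 to 0.18 for Sec61g. Sec61a1 (ENSMUSG00000030082), the channel itself, was at 123, 119 and 121 CPM in Sham and 116, 117 and 117 CPM in OVX. The groups of Sec61a1 did not overlap, but its highest level was only 1.07 times its lowest, the narrowest span of the members, and the log2 fold change was -0.055 (SE 0.055). Sec61b (ENSMUSG00000053317), a small subunit of the channel, was at 68.3, 54.8 and 64.9 CPM in Sham and 58.4, 65.6 and 62.4 CPM in OVX, with both ends of the range in Sham. Its log2 fold change was -0.011, with an interval from -0.24 to 0.22. Sec61g (ENSMUSG00000078974), the other small subunit, was at 53.0, 41.0 and 43.2 CPM in Sham and 41.2, 58.5 and 55.4 CPM in OVX. OVX replicate 1 sat with the 2 lower Sham libraries and Sham replicate 1 with the 2 higher OVX libraries, and the log2 fold change was 0.18 (SE 0.16). For Sec61g it was 0.32 without OVX replicate 1, 0.081 without OVX replicate 2, and -0.074 and -0.061 with the neutrophil level and the pro-B and pre-B level as covariates. Ssr3 (ENSMUSG00000027828), a subunit of the TRAP complex beside the channel, was at 193, 161 and 177 CPM in Sham and 171, 184 and 200.1 CPM in OVX, with overlap and a log2 fold change of 0.064 (SE 0.093). Over the 9 genes, 5 lay above 0 and 4 below, and 2 lay above and 7 below both with scaling on 12 B cell genes and without Sham replicate 2. With the pro-B and pre-B level as a covariate 0 lay above and 9 below, with a median of -0.061.

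Among the sensors and transcription factors of the unfolded protein response, none passed the test, and PERK was the 1 whose groups did not overlap. Eif2ak3 (ENSMUSG00000031668), the kinase that slows translation through eIF2α, was at 148, 145 and 147 CPM in Sham and 156, 167 and 155 CPM in OVX. The lowest OVX library exceeded the highest Sham library, with a mean of 159.6 ± 6.78 CPM in OVX and 147 ± 1.57 CPM in Sham (SD, n = 3 each). For Eif2ak3 the log2 fold change was 0.12 (SE 0.061, adjusted p = 0.811, edgeR's quasi-likelihood test), between 0.086 and 0.14 when one library was left out, and 0.030 with scaling on 12 B cell genes. Ern1 (ENSMUSG00000020715), the sensor that splices Xbp1 mRNA, was at 27.9, 27.3 and 37.8 CPM in Sham and 35.8, 30.3 and 30.4 CPM in OVX. Its highest library was Sham replicate 3, and its log2 fold change of 0.052 had an interval from -0.29 to 0.40. Atf6 (ENSMUSG00000026663), the sensor that is itself cut into a transcription factor, was at 151, 129 and 136 CPM in Sham and 131, 139.8 and 144 CPM in OVX, with a log2 fold change of -0.00043 and an interval from -0.19 to 0.18. The factors downstream of PERK also overlapped. Atf4 (ENSMUSG00000042406) was at 290.5, 248 and 241 CPM in Sham and 267, 291 and 287 CPM in OVX, with a log2 fold change of 0.12 (SE 0.090). Ddit3 (ENSMUSG00000025408), which encodes the death-promoting factor CHOP, was at 15.03, 15.2 and 17.5 CPM in Sham and 15.4, 17.6 and 18.0 CPM in OVX, with a log2 fold change of 0.10 (SE 0.12). Trib3 (ENSMUSG00000032715), a pseudokinase induced by CHOP, was the least counted member, with 65, 64 and 38 reads in Sham and 58, 98 and 78 reads in OVX. These are 2.74, 2.25 and 1.53 CPM in Sham and 2.36, 3.46 and 2.36 CPM in OVX. The interval of its log2 fold change of 0.33 ran from -0.38 to 1.03, and the value was 0.12 without OVX replicate 2 and 0.52 without Sham replicate 1. The protein activity of the sensors, which is set by phosphorylation and cleavage, is not seen in counts of reads.

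The 16 members not given library by library were Hyou1, Dnajb9, Dnajb11, Dnajc3 and Manf of the BiP system, Pdia4, the degradation genes Sel1l, Derl1, Derl2, Edem1 and Edem2, and Ssr1, Ssr2, Ssr4, Spcs1 and Spcs2 at the channel. Their log2 fold changes ran from -0.17 for Edem2 to 0.15 for Dnajb9, with 7 above 0 and 9 below. All 16 had overlapping groups, and all 16 intervals stayed inside a fold of 1.6, as did those of 9109 of the 15305 genes tested. Dnajb9, the BiP cochaperone ERdj4 and a known target of XBP1, varied most within OVX, with 23.9, 31.6 and 34.8 CPM in replicates 1, 2 and 3. The value of Dnajb9 was 0.29 without OVX replicate 1 and 0.036 without OVX replicate 3.

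The members also varied between libraries of one group. Over the 6 libraries the coefficient of variation of a member had a median of 7.23%, from 2.44% for Sec61a1 to 25.8% for Trib3, beside 13.3% over all genes tested, which include genes with far fewer reads. Sham replicate 2 was the lowest library for 15 of the 38 members, or 39.5%, beside 28.8% of all genes tested, and OVX replicate 1 was the lowest for 13, or 34.2%, beside 10.8%. In OVX replicate 1 only 7 members lay above their own mean over the libraries, with a median deviation of -0.078 on the log2 scale, beside 0.0024 for all genes. Sham replicate 3 was the highest library for 12 members, or 31.6%, beside 18.3% of all genes. The most frequent pair of highest libraries was Sham replicates 1 and 3, for 7 members, Dnajb11, Sdf2l1, Canx, Pdia6, P4hb, Sec61a1 and Ssr4, beside 4.02% of all genes. Sham replicates 2 and 3 were the 2 highest for 6 of the 38 members, Creld2, Calr, Pdia3, Sel1l, Derl3 and Edem2, a share near the 15.2% of all genes. OVX replicates 2 and 3 were the 2 highest for 6 other members, Dnajb9, Herpud1, Syvn1, Derl1, Sec61g and Ddit3, beside 9.62% of all genes. These 2 libraries were lowest in neutrophil genes and highest in pro-B and pre-B genes, and a relation to either was not tested.

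**Figure D5:**
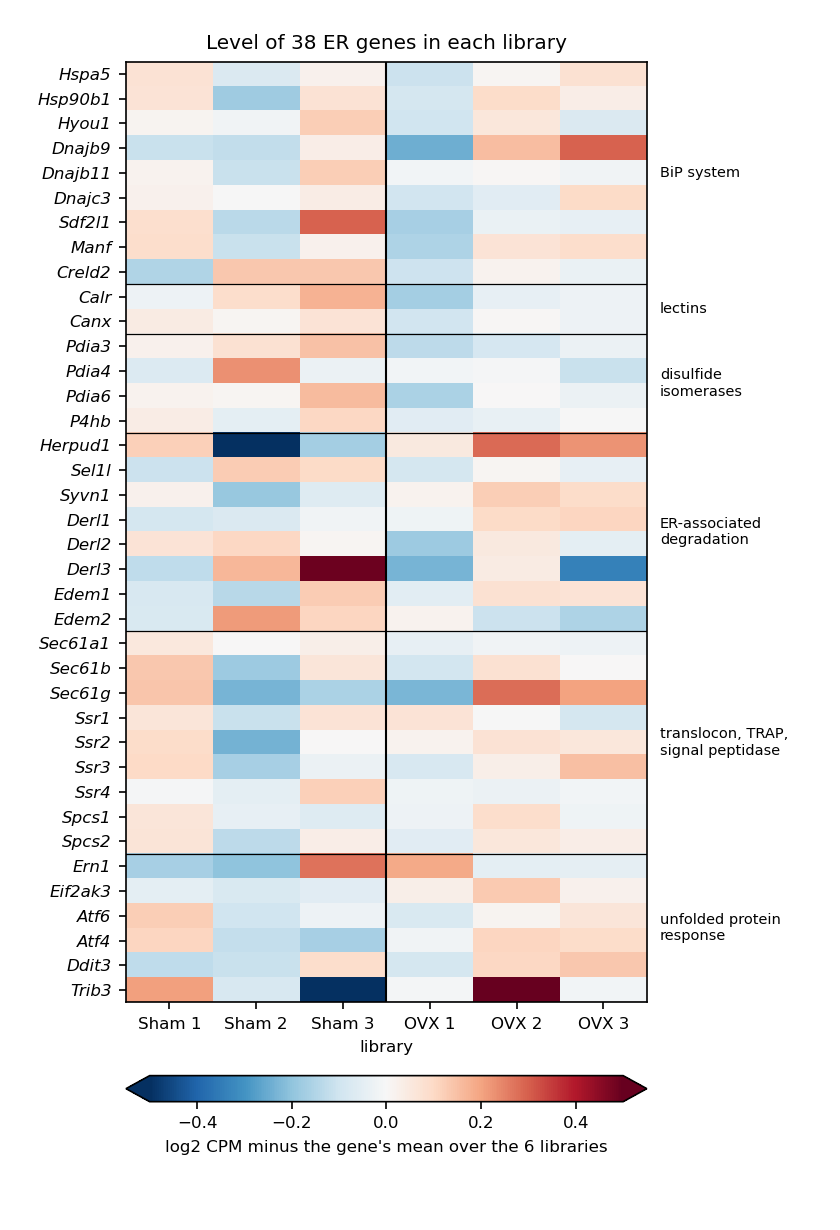
Log2 CPM of each of the 38 ER genes (rows, grouped by role) in each library (columns) minus the gene's mean over the 6 libraries, with colours saturating at 0.5 in either direction. The column of OVX replicate 1 is mostly below the mean, and Herpud1, Derl3 and Trib3 vary most.

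No other gene of the pathway was called either. Of 77 further genes for the unfolded protein response, folding, degradation, targeting, N-glycosylation and ER exit, 76 passed the filter on low counts, and 0 were called in either direction. Of the 76, 41 lay above 0 and 35 below, with a median log2 fold change of 0.019. The 13 genes of targeting, translocation and signal cleavage had 11 above 0, with a median of 0.12, and the 12 tested of the unfolded protein response had 8 below 0, with a median of -0.072. The 10 N-glycosylation genes had a median of -0.014, the 14 ER exit genes 0.012, the 15 folding genes -0.035 and the 12 degradation genes 0.071. Xbp1 (ENSMUSG00000020484), the factor spliced by IRE1α and needed for antibody secretion, was at 102, 123 and 127 CPM in Sham and 96.8, 109.8 and 103 CPM in OVX. Its groups overlapped, with Sham replicates 2 and 3 highest, and the log2 fold change was -0.19 (SE 0.098, adjusted p = 0.811, edgeR's quasi-likelihood test). Counts per gene do not separate the spliced from the unspliced form of Xbp1. The 1 further gene at an unadjusted p under 0.05 was Atf3 (ENSMUSG00000026628), a stress-induced factor downstream of ATF4, with 17, 50 and 63 reads in Sham and 15, 11 and 24 reads in OVX. At 0.718, 1.76 and 2.53 CPM in Sham and 0.611, 0.388 and 0.727 CPM in OVX its groups overlapped, and the log2 fold change was -1.53 (SE 0.51, adjusted p = 0.811, edgeR's quasi-likelihood test). Its highest library, Sham replicate 3, was also the highest in S100a9, an abundant neutrophil transcript, with 667, 899 and 2488 CPM in Sham and 1096, 294 and 311 CPM in OVX. Their relation was not tested.

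Promoter letters and group differences can be set side by side. The 11 members with an ERSE or ERSE-II had a median log2 fold change of -0.034, with 3 above 0 and 8 below, and ran from the lowest value, that of Derl3, to the highest, that of Herpud1. The 21 members with a window and neither element had a median of 0.022, with 11 above 0 and 10 below. The 1 exact ERSE match in Hspa5 and the 2 in Hsp90b1 went with log2 fold changes of -0.015 and 0.024. The matches in Calr, Canx and Pdia6 went with -0.16, -0.079 and -0.12. None of these passed the test over all genes.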

How the data were processed

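RNA-seq counts of bone marrow B cells were used, with 3 OVX and 3 Sham libraries grouped by their titles. Libraries of HIF-1α ChIP and input DNA were not analysed here. The table deposited by the authors holds read counts for each Ensembl gene, not normalized. The submitters' processing notes name CASAVA, Bowtie 0.12.2 and the build mm10, and the counting tool, annotation and strand setting are not given in the sources used here, so reads shared between overlapping or near-identical genes could not be checked. Symbols were matched to 54409 of 54532 identifiers. Of 2 identifiers named Ddit3, the one with reads was used.

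The main test was run in edgeR 4.0.16 under R 4.3.3, and DESeq2 1.42.0 and limma 3.58.1 served as alternatives. Low-count genes were removed by filterByExpr, and the others were scaled by TMM and compared by the quasi-likelihood test, with OVX against Sham and no block. A standard error is the log2 fold change divided by the square root of F, and the 95% interval uses the test's degrees of freedom. The scripts were tested on simulated counts, with calls at an adjusted p below 0.05 by the same test and no fold threshold. Of 200 changed genes, 48 were called at 1.6-fold, 102 at 2-fold and 169 at 4-fold, with 5, 5 and 6 wrong calls. With no change simulated, 3 genes were called. Many changes of 1.6-fold can therefore go uncalled. All pairs of libraries differed by more than sampling noise. The study's captions give n = 3 for each group without saying whether n counts mice, and the labels tie no library to a mouse. The p-values therefore measure the spread between these libraries. Promoter windows are RefSeq's (GRCm38.p6).

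The members and gene lists were chosen with earlier results of these data known. Library values are printed for members whose groups do not overlap, for those with the lowest p or highest level of each role, and for a fixed list, and for Xbp1, Jchain, Sdc1, S100a9 and pathway genes at an unadjusted p under 0.05. The alternatives were DESeq2, limma-voom, 4 other scalings, 2 other low-count filters, no fold threshold, each library left out and a replicate block, and 2 covariates were added after the data were seen. No per-length levels were computed, so levels are compared within a gene.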

Additional observations from a re-analysis of the deposited data

How the results depend on the processing

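In every alternative run, 0 genes and 0 members were called, and the lowest adjusted p over all genes was 0.273, without Sham replicate 1. The members' median log2 fold change lay between -0.10 with scaling on 12 B cell genes, which moved the median of all genes by -0.09, and 0.019 without OVX replicate 1. With scaling on the B cell genes 28 members lay below 0 against 21. Of all genes, 574 had an unadjusted p under 0.05, against 1269 of 27416 without a filter on low counts and, with a single library omitted, 233 to 2698, the most without Sham replicate 1. The split was 225 higher and 349 lower, and 62 and 517 with scaling on the B cell genes. Among the members 1 was at that level, against 2 with limma-voom, 4 with scaling on the B cell genes and, with a single library omitted, 0 to 8. The 8 were Herpud1, Syvn1 and Atf4, higher, and Calr, Pdia3, Sel1l, Derl3 and Edem2, lower, without Sham replicate 1. With DESeq2, and without the filter, the 1 member was Herpud1, on 27416 genes tested. The labels do not say whether replicate numbers mark pairs. Same-numbered libraries had correlations of -0.41, -0.189 and -0.279 of their deviations from group means across genes, and differently numbered ones -0.197 to 0.433. Such deviations also carry differences in cell types between libraries, so they cannot decide it. With the replicate block 206 genes and 0 members were at an unadjusted p under 0.05. Chosen after seeing the data, the neutrophil level as a covariate gave 153 such genes and 1 member, Ern1, and the pro-B and pre-B level gave 259 and 0. With these 2 covariates Herpud1 lay at 0.23 and 0.10, Derl3 at -0.20 and -0.24, and Pdia3 at -0.15 in both. The causes were not tested. No named member changed sign from beyond to beyond its standard error. Values near 0, such as those of Hspa5, Hsp90b1 and Ern1, changed sign. Larger ones did so too, among them Sec61g with either covariate and Trib3, at -0.029, with the neutrophil level. Creld2 and Sel1l changed sign with 1 covariate, and Ssr2 and Pdia4 without Sham replicate 2. Trib3 had 38 to 98 reads a library and a coefficient of variation of 25.8%.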
